A study of Homo sapiens with 6 samples.

Results

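Cells commit to a round of DNA replication at the passage from G1 to S phase, and they raise the RNA of many replication genes as they do so. The set described here holds 45 such genes, listed by symbol, out of 28307 gene symbols in the tables. No measured value was part of the listing rule, but earlier results of these data were known when the genes were chosen. It spans 10 genes of helicase loading and firing, 8 of the polymerases, the sliding clamp and the fork, 4 of nucleotide supply and uracil removal, 11 of histone supply and chromatin, 8 of fork protection and repair, and 4 regulators of the transition. All 45 had a mean abundance of at least 1 TPM, a level corrected for transcript length and for library size, and were among the 13300 genes tested.

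In this pathway cyclin E and its kinase release E2F transcription factors from the retinoblastoma protein RB1, and E2F factors then switch on the genes for the replication machinery. The MCM2 to MCM7 proteins form a ring that is loaded onto origins in G1 and becomes the core of the replicative helicase in S phase. Polymerases, the PCNA clamp and the enzymes that supply nucleotides follow. Dividing cells such as cancer lines hold much RNA of this kind.

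The libraries came from SW480, an established human colon adenocarcinoma line. Both groups carried a pLENTI CMV lentivirus and were kept under puromycin selection. The Clover cells expressed a fluorescent protein as the control (3 libraries) and the Z18trunc cells a truncated form of ZC3H18, a partner of nuclear RNA surveillance complexes (3 libraries). The lines were made in biological triplicate, the CMV promoter drives both transgenes, and the cells keep their own ZC3H18 gene. Libraries were polyA-selected, stranded and paired-end, with 18226033 to 22463310 aligned fragments each.

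ZC3H18 stood at 58.4, 51.3 and 61.8 TPM in Clover and 752, 739 and 798 TPM in Z18trunc, so it was higher in each library labelled Z18trunc than in each labelled Clover. RNA of the transgene and of the cells' own gene cannot be told apart in this value. Of 8 colon epithelial markers, 7 had a mean of at least 1 TPM, and LGALS4 stayed under 1 TPM in every library. The summed level of the epithelial markers ran from 23322 to 24914 TPM in Clover and from 22872 to 23985 TPM in Z18trunc. The 6 melanocytic markers summed to 2.66 to 3.99 TPM in Clover and 3.33 to 5.09 TPM in Z18trunc, with 2 at 0 in all libraries. The 6 stromal and blood markers summed to under 2 TPM in every library, with 3 at 0.

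E2F factors bind promoters at short sites, and the promoters of the members were searched for such letters. The letters TTTCCCGC, TTTCGCGC, TTTGCCGC and TTTGGCGC were searched on both strands from 250 bases before to 50 bases after the start site, in RefSeq promoters of build GRCh38.p14. Of the 45 members, 36 had a promoter entry, and 19 of these 36 (52.8%) held a match, which lay wholly before the start site in 15. Among all 27305 promoters 3.33% did, and among those of the genes tested 5.58%. A match was found in 3 of 44 G2/M and mitosis genes (6.82%) and in 11 of 41 replication genes outside the module (26.8%). Below are 30-base windows around a match for 7 members that differ in how they behaved in these cells. They run 5′ to 3′ on the strand of the gene, with the matched letters in capitals. Capitals that begin with GCG are a match on the opposite strand. Matches were counted on each strand, including overlapping ones, since letters such as TTTGGCGC can match on both strands at neighbouring positions.
MCM6: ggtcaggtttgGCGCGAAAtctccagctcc
MCM7: ccggtcacgtggggggcgacgTTTCGCGCc
MCM3: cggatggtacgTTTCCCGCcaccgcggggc
PCNA: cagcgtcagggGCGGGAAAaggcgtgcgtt
POLA1: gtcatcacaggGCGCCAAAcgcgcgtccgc
TYMS: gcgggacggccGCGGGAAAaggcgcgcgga
E2F1: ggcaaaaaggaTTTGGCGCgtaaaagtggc

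The windows lie at chr2:135876511-135876540 on the minus strand for MCM6, chr7:100101398-100101427 on the minus strand for MCM7 and chr6:52284898-52284927 on the minus strand for MCM3. Those of PCNA and E2F1 lie at chr20:5126663-5126692 and chr20:33686387-33686416, both on the minus strand. POLA1 is shown at chrX:24693770-24693799 on the plus strand and TYMS at chr18:657603-657632 on the plus strand. MCM6 held 4 matches, more than any other of these 7 members. Its window also holds TTTGGCGC on the strand of the gene, overlapping the marked letters. Members with and without a match were both found among those higher in Z18trunc. At an unadjusted limma p under 0.05, which 25.6% of all genes tested reached upward, 5 of the 19 members with a match were higher (median log2 change 0.22), as were 6 of the 17 without one (median 0.18). Of the 9 members with no promoter entry, 5 were higher (median 0.24).

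The module was strongly expressed in the control cells. Mean Clover levels, which are per transcript length, ran from 1.43 TPM for CASP8AP2 to 1011 TPM for MCM7, with a median of 33.8 TPM against 14.2 TPM for all genes tested. Of the 45 members, 30 lay above that median of all genes. PCNA, the clamp that tethers polymerases to DNA, was the next most abundant member at 596 ± 30.7 TPM (SD, n = 3). The summed TPM of the module was 4345, 4006 and 4536 in Clover and 4453, 4447 and 4317 in Z18trunc. It made up 0.401% to 0.454% of all TPM, and the groups overlapped.

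**Figure D1:**
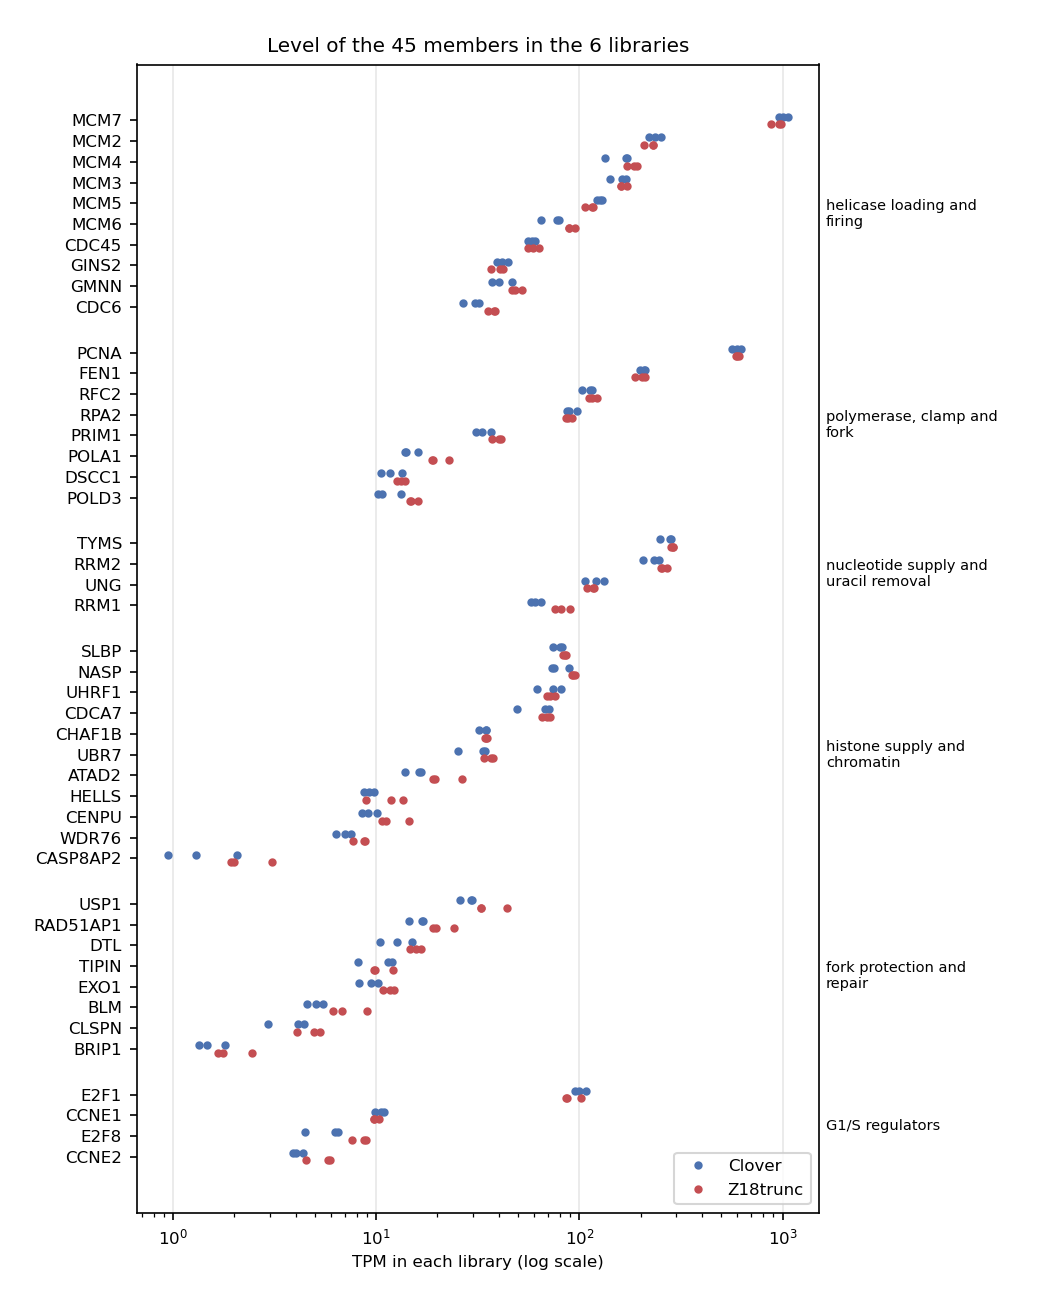
TPM of each of the 45 members in the 6 libraries on a log axis, 1 point per library, with Clover in blue and Z18trunc in red and the genes grouped by role. The members span from 1.43 TPM (CASP8AP2) to 1011 TPM (MCM7) in the Clover mean, and for most genes the 2 colours lie close together compared with that span.

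To ask whether truncated ZC3H18 changed the replication programme, each gene was compared between the 3 Z18trunc and the 3 Clover libraries with limma on log2(TPM + 1). No member passed at an adjusted p under 0.05. The smallest limma adjusted p among the members was 0.0773, and 2 of the 13300 genes tested (0.0150%) passed in all. At an unadjusted p under 0.05, 16 of the 45 members were higher in Z18trunc (25.6% of all genes tested were) and 0 were lower (2.90% of all genes). In 19 members each Z18trunc library was above each Clover library (30.1% of all genes), in 1 member, MCM5, they all lay below (6.73%), and in 25 members the groups overlapped. The median log2 change of the members was 0.22, against 0.11 for all genes tested, and 27 of the 45 lay above the median of all genes.

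The lean toward higher values was shared by the whole transcriptome, so its size depended on how the libraries were scaled. With quantile normalization, which gives every library the same distribution of values, 5 members were higher (12.8% of all genes), RRM1, E2F8, MCM6, POLA1 and CDC6, and 2 were lower (10.9%), MCM5 and CCNE1. The median member change was 0.09 against -0.01 for all genes. With each library centred on its median gene, 4 members were higher (10.2% of all genes) and 7 lower (18.5%), with a median of 0.05 against -0.06. Centred this way, 25 of the 45 members were above 0 (41.9% of all genes), compared with 35 as deposited (68.0% of all genes). No scaling gave a member an adjusted p under 0.05. The 95% intervals of the log2 changes reached at most 0.94 (CASP8AP2) and at least -0.36 (E2F1), with standard errors from 0.07 to 0.20. In bulk RNA, a different share of cells in S phase and a different amount of RNA per cell cannot be told apart.

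**Figure D2:**
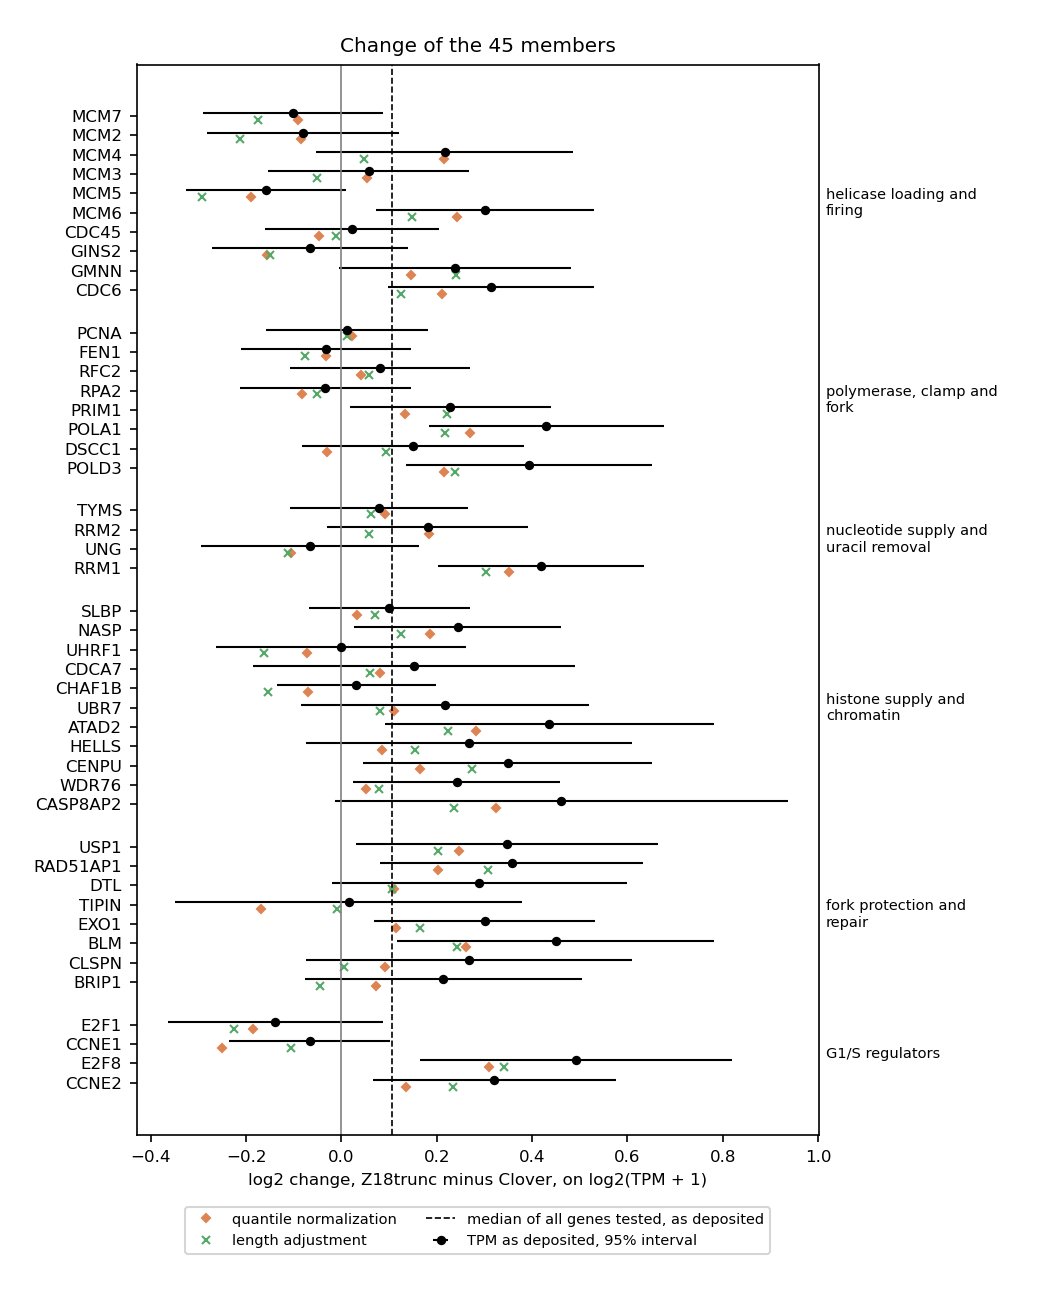
Log2 change (Z18trunc minus Clover) of each member on the log2(TPM + 1) scale, with black points and 95% intervals for TPM as deposited, orange diamonds after quantile normalization and green crosses after a length adjustment, and a dashed line at the median of all genes tested (0.11). RRM1 and E2F8 are among the members that stay to the right of 0 under all 3. MCM5 and E2F1 are among those that stay to the left.

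The 6 subunits of the MCM ring did not move as 1 unit. MCM6 was above Clover in all 3 Z18trunc libraries, MCM5 was below in all 3, and MCM2 and MCM7 had lower means with overlap. MCM7, whose gene (hg38, chromosome 7, 100092728 to 100101397, minus strand) also hosts the microRNAs MIR106B, MIR93 and MIR25 on the same strand, had 1006, 963 and 1064 TPM in Clover and 966, 982 and 880.2 TPM in Z18trunc. Its log2 change was -0.10 (95% interval -0.29 to 0.09), and the highest 2 values were both Clover libraries. MCM2 had 235, 219 and 251 TPM in Clover against 229, 229.7 and 208 TPM in Z18trunc, a log2 change of -0.08 (95% interval -0.28 to 0.12). The third Z18trunc library was the lowest of the 6 for both genes.

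MCM5 (chromosome 22, 35400140 to 35425431) had 126, 123 and 129 TPM in Clover and 116, 115 and 107 TPM in Z18trunc. All 3 Z18trunc values lay under the lowest Clover value. This log2 change was -0.16 (SE 0.07, limma adjusted p = 0.194). It was -0.19 after quantile normalization, past the unadjusted threshold and with a limma adjusted p of 0.159.

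MCM6 (chromosome 2, 135839626 to 135876443, minus strand) had 77.5, 64.8 and 79.1 TPM in Clover and 89.3, 88.7 and 94.6 TPM in Z18trunc. The groups did not overlap, and Clover replicate 2 was the lowest library. The log2 change came to 0.30 (SE 0.10, limma adjusted p = 0.106) and 0.24 after quantile normalization. MCM4 had 169, 134 and 172 TPM in Clover and 192, 185 and 172 TPM in Z18trunc. The closest of its libraries, Clover 3 and Z18trunc 3, were almost equal, and the log2 change was 0.22 (95% interval -0.05 to 0.49). MCM3 had 163, 142 and 169 TPM in Clover and 171, 160.0 and 161 TPM in Z18trunc, with overlap and a log2 change of 0.06 (95% interval -0.15 to 0.27).

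Ratios of TPM between subunits within a library do not change when the library is multiplied by a constant factor, although quantile normalization and the length adjustment can change them. For 11 of the 15 pairs of MCM2 to MCM7 the 3 Z18trunc ratios all lay on 1 side of the 3 Clover ratios. These ratios were examined after the levels had been seen, and no test was made on them. The 15 pairs reuse the same genes, so they are not separate observations. For these ratios and those given below, the share of other gene pairs without overlap was not computed. MCM6 over MCM5 was 0.616, 0.529 and 0.615 in Clover and 0.770, 0.771 and 0.886 in Z18trunc, a log2 ratio of the means of 0.46. MCM7 over MCM6 averaged 13.8 ± 0.981 over Clover and 10.4 ± 0.956 over Z18trunc (SD, n = 3 per group). In every pair between MCM3, MCM4 and MCM6 on one side and MCM2, MCM5 and MCM7 on the other, the ratios did not overlap. MCM4 over MCM3 and MCM6 over MCM3 did not overlap either. The pairs MCM5 over MCM2, MCM7 over MCM2, MCM7 over MCM5 and MCM6 over MCM4 were the 4 that overlapped. MCM7 averaged 4.31 ± 0.0835 times MCM2 over Clover and 4.24 ± 0.0312 times over Z18trunc (SD, n = 3 per group).

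**Figure D3:**
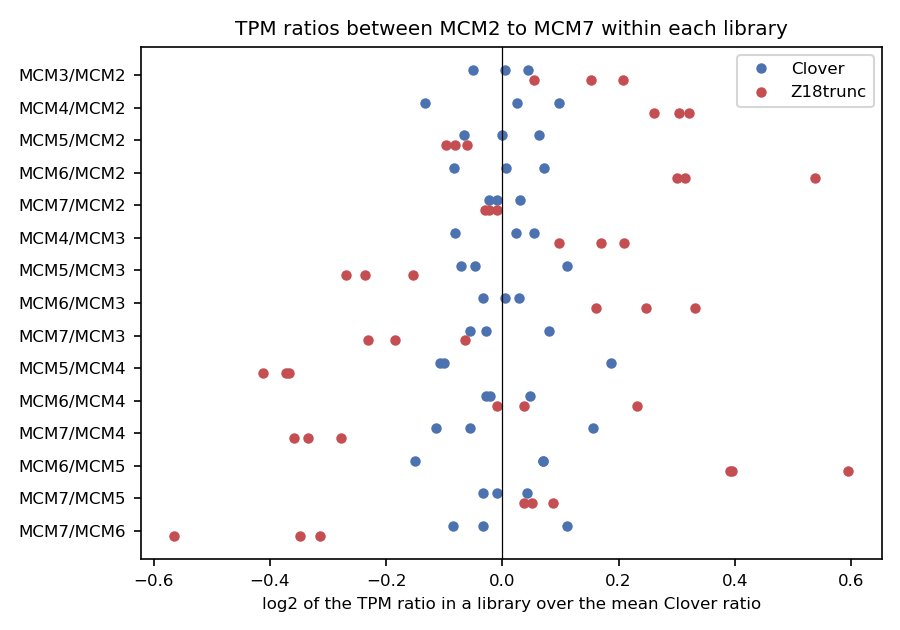
TPM ratio of each pair of MCM2 to MCM7 in each library, as log2 of the ratio over its Clover mean, with Clover in blue and Z18trunc in red. The Z18trunc points of MCM6 over MCM5 all lie above the Clover points and those of MCM7 over MCM6 all lie below, while MCM7 over MCM2 stays at about 0 in both groups.

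The other helicase genes also differed among themselves. CDC6, which loads the MCM ring at origins, had 30.6, 26.7 and 32.1 TPM in Clover and 35.4, 38.4 and 37.8 TPM in Z18trunc, a log2 change of 0.31 (SE 0.09, limma adjusted p = 0.0932). It was named after its values were seen, because it was among the 5 members that were higher after quantile normalization (log2 change 0.21). CDC45 and GINS2 join the ring to form the active helicase. Their log2 changes were 0.02 and -0.07, with overlap. GMNN, the geminin that blocks loading outside G1, had a change of 0.24 and an overlap between Clover 3 (46.7 TPM) and Z18trunc 2 (46.5 TPM). In the 10 helicase genes, 2 were higher at the unadjusted threshold (25.6% of all genes) and the median change was 0.04, against 0.11 for all genes.

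Among the 8 genes of the polymerases, clamp and fork, 3 were higher at the unadjusted threshold (25.6% of all genes), POLA1, PRIM1 and POLD3. POLA1, the catalytic subunit of polymerase alpha, had 13.9, 14.0 and 16.0 TPM in Clover and 18.7, 18.9 and 22.7 TPM in Z18trunc. The groups were well apart, with a log2 change of 0.43 (SE 0.10, limma adjusted p = 0.0811). PRIM1, the primase subunit that works with it, had 33.1, 30.9 and 36.7 TPM in Clover and 40.9, 37.2 and 40.2 TPM in Z18trunc, a log2 change of 0.23 (SE 0.09, limma adjusted p = 0.153). POLA1 over PRIM1 within a library averaged 0.437 ± 0.0172 over Clover and 0.510 ± 0.0532 over Z18trunc (SD, n = 3 per group), without overlap. The POLA1 transcript is longer than that of PRIM1 (5487 against 1423 bases). With the length adjustment described below, the log2 changes were 0.22 for POLA1 and 0.22 for PRIM1.

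POLD3, an accessory subunit of polymerase delta, had 10.2, 10.6 and 13.2 TPM in Clover and 14.8, 14.6 and 16.0 TPM in Z18trunc. Its log2 change was 0.39 (SE 0.11, limma adjusted p = 0.0890) and 0.22 after quantile normalization. DSCC1, part of a clamp loader that also serves sister chromatid cohesion, had 13.4, 10.5 and 11.7 TPM in Clover and 13.8, 12.7 and 13.2 TPM in Z18trunc, with overlap. Its log2 change was 0.15 as deposited and -0.03 after quantile normalization. The 4 most abundant genes of this role lay nearest to 0, with log2 changes of 0.01 for PCNA, -0.03 for the flap nuclease FEN1, 0.08 for the clamp loader RFC2 and -0.03 for RPA2, which coats single strands.

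RRM1 was the member with the smallest p. It encodes the large subunit of ribonucleotide reductase, which makes deoxynucleotides from ribonucleotides (hg38, chromosome 11, 4094685 to 4138932). Its levels were 60.4, 58.0 and 64.9 TPM in Clover and 81.3, 75.4 and 89.7 TPM in Z18trunc. Every Z18trunc library was above every Clover library, the means were 61.1 ± 3.5 and 82.1 ± 7.19 TPM (SD, n = 3 per group), and the ratio of the means was 1.34. The log2 change came to 0.42 (SE 0.09, limma adjusted p = 0.0773) and 0.35 after quantile normalization. With only genes of at least 5 TPM in the fit, the limma adjusted p of RRM1 was 0.0486. It was the 1 member called of the 41 tested there, in a fit that called 474 of 9973 genes.

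RRM2, the small subunit whose level follows S phase, had 233, 207 and 248 TPM in Clover and 256, 269 and 253 TPM in Z18trunc. The groups did not overlap, but the log2 change was smaller at 0.18 (SE 0.09, limma adjusted p = 0.231). The ratio of RRM1 to RRM2 averaged 0.267 ± 0.0119 over Clover and 0.318 ± 0.0376 over Z18trunc (SD, n = 3 per group), with overlap. TYMS, which makes thymidylate, had 279, 248 and 284 TPM in Clover and 287, 288 and 281 TPM in Z18trunc. UNG, which removes uracil from DNA, had 121, 107 and 132 TPM in Clover and 117, 118 and 108 TPM in Z18trunc. Both overlapped, with log2 changes of 0.08 (95% interval -0.11 to 0.27) and -0.07 (95% interval -0.29 to 0.16).

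Of the 11 genes of histone supply and chromatin, 4 were higher at the unadjusted threshold (25.6% of all genes). Without Clover replicate 2, 0 were (19.4% of all genes). Their median change was 0.24, against 0.11 for all genes. With the length adjustment described below it was 0.08, against -0.01 for all genes. ATAD2, a bromodomain ATPase of chromatin, had 16.7, 13.8 and 16.2 TPM in Clover and 19.4, 19.0 and 26.6 TPM in Z18trunc. The third Z18trunc library was far above the others, and the difference was 0.44 on the log2 scale (SE 0.14, limma adjusted p = 0.113). CENPU, a centromere protein, had the same shape, with 9.14, 8.47 and 10.1 TPM in Clover and 11.1, 10.7 and 14.5 TPM in Z18trunc and a log2 change of 0.35 (SE 0.13, limma adjusted p = 0.137). NASP, a chaperone that holds free histones, had 88.5, 73.4 and 74.7 TPM in Clover and 92.6, 95.3 and 92.0 TPM in Z18trunc. Here the Z18trunc libraries were tight and Clover 1 stood near them, with a log2 change of 0.24 (SE 0.09, limma adjusted p = 0.142).

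WDR76, a WD-repeat protein of the nucleus, had 6.98, 6.30 and 7.53 TPM in Clover and 8.78, 8.71 and 7.66 TPM in Z18trunc. Its log2 change of 0.24 (SE 0.09, limma adjusted p = 0.145) was 0.05 after quantile normalization. None of the 11 genes was higher (12.8% of all genes) or lower (10.9%) at the unadjusted threshold after that normalization. The remaining 7 ranged from 0.00 for UHRF1, which guides maintenance methylation of DNA, to 0.46 for CASP8AP2. SLBP, which binds the end of histone mRNA, did not overlap between groups (log2 change 0.10). CASP8AP2 had the widest interval of the module (-0.01 to 0.94), at 2.06, 0.937 and 1.30 TPM in Clover and 2.001, 1.92 and 3.06 TPM in Z18trunc, and its coverage was the lowest of the members, at 2.19 reads per base in its lowest library.

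The 8 genes of fork protection and repair were all above 0, as were 68.0% of all genes tested. At the unadjusted threshold 4 were higher (25.6% of all genes), and 1 was without Clover replicate 2 (19.4% of all genes). Their median change was 0.29, against 0.11 for all genes. With the length adjustment described below it was 0.14, against -0.01 for all genes. There 6 were above 0 (48.4% of all genes) and 1 was higher at the unadjusted threshold (12.7%). BLM, a helicase that resolves recombination structures, had 5.06, 4.55 and 5.47 TPM in Clover and 6.11, 6.75 and 9.03 TPM in Z18trunc, a log2 change of 0.45 (SE 0.14, limma adjusted p = 0.101). RAD51AP1, a DNA-binding protein of homologous recombination, had 17.0, 14.4 and 16.8 TPM in Clover and 19.1, 19.6 and 24.2 TPM in Z18trunc, a log2 change of 0.36 (SE 0.12, limma adjusted p = 0.108). In both the groups were apart and the third Z18trunc library was the highest. USP1, a deubiquitinase of PCNA and FANCD2, repeated that pattern at 29.2, 25.9 and 29.7 TPM in Clover and 32.7, 32.7 and 44.2 TPM in Z18trunc, with a log2 change of 0.35 (SE 0.13, limma adjusted p = 0.150).

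EXO1, an exonuclease of mismatch repair and end resection, had 10.2, 8.17 and 9.37 TPM in Clover and 12.3, 10.8 and 11.7 TPM in Z18trunc. The groups were apart with no single high library, and the difference was 0.30 on the log2 scale (SE 0.10, limma adjusted p = 0.109). The other 4 overlapped, with log2 changes of 0.29 for DTL, 0.27 for CLSPN, 0.21 for BRIP1 and 0.02 for TIPIN. CLSPN and TIPIN act at stalled forks. After quantile normalization 0 of the 8 were higher (12.8% of all genes) or lower (10.9%) at the unadjusted threshold. Their median change there was 0.11, against -0.01 for all genes.

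The 4 regulators split by pair. E2F8, an atypical E2F that represses E2F targets (hg38, chromosome 11, 19224063 to 19241655, minus strand), had 6.47, 4.45 and 6.25 TPM in Clover and 8.90, 7.56 and 8.69 TPM in Z18trunc. All Z18trunc libraries were above all Clover libraries, with a log2 change of 0.49 (SE 0.14, limma adjusted p = 0.0898). This was the largest log2 change in the module on the log2(TPM + 1) scale, and it was 0.31 after quantile normalization. E2F1, the activator of the pathway, had 95.5, 99.2 and 108 TPM in Clover and 85.9, 102 and 86.9 TPM in Z18trunc, with overlap and a log2 change of -0.14 (95% interval -0.36 to 0.09).

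The cyclin E genes also differed. CCNE2 had 4.37, 3.87 and 4.04 TPM in Clover and 4.50, 5.75 and 5.93 TPM in Z18trunc, with the first Z18trunc library close to Clover and a log2 change of 0.32 (SE 0.11, limma adjusted p = 0.115). CCNE1 had 10.5, 9.85 and 10.9 TPM in Clover and 10.2, 9.71 and 9.70 TPM in Z18trunc, with a log2 change of -0.07 as deposited and -0.25 after quantile normalization (limma adjusted p = 0.128 there). The ratio of CCNE2 to CCNE1 averaged 0.394 ± 0.0223 over Clover and 0.547 ± 0.0946 over Z18trunc (SD, n = 3 per group), without overlap. This pair too was chosen after its levels were seen.

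The changes of the members followed the length of their transcripts and, in the opposite sense, their level. Over the 45 members, Spearman's rho between the log2 change and the length of the canonical GENCODE 44 transcript was 0.49, and between the log2 change and the mean TPM it was -0.60. Over the 12820 genes tested that have a length (96.4%), the values were 0.40 and -0.24. All genes share the 6 libraries, and length and level are themselves related (rho -0.43 among the members), so no p is given. The 25 members over 3000 bases had a median change of 0.27 and 12 were higher at the unadjusted threshold, against a median of 0.21 and 37.5% for all genes of such length. The 20 shorter members had a median of 0.05 and 4 were higher, CCNE2, CENPU, PRIM1 and RAD51AP1, against a median of 0.02 and 14.0% for all genes.

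**Figure D4:**
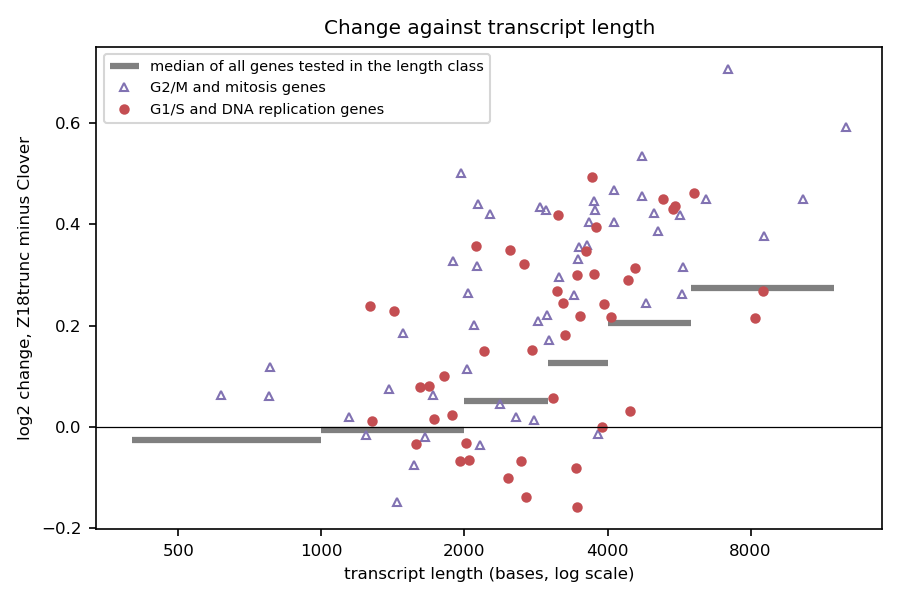
Log2 change (Z18trunc minus Clover, log2(TPM + 1) scale) against transcript length on a log axis for the 45 members (red points) and the 52 G2/M and mitosis genes (open triangles), with grey bars at the median of all genes tested in 6 length classes. The grey bars climb from -0.03 for genes of up to 1000 bases to 0.27 for genes over 6000 bases. MCM5, MCM2 and E2F1 are among the red points under 0.

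A fit that first took out each library's trend with length, chosen after the data were seen, left 6 members higher (12.7% of all genes) and 5 lower (11.8%). The 6 were RRM1, E2F8, PRIM1, RAD51AP1, CCNE2 and GMNN, and the 5 were MCM5, MCM2, MCM7, E2F1 and CHAF1B, the last a subunit of a histone chaperone. In that fit the log2 changes of MCM5, MCM2 and MCM7 were -0.29, -0.21 and -0.17, and those of RRM1 and E2F8 were 0.30 and 0.34. With a member median of 0.07 against -0.01 for all genes, members lay on both sides of 0. No member passed after adjustment.

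Clover replicate 2 stood apart from the other libraries, for the members and for genes in general. The median deviation of all genes tested from their own means was -0.13 (log2) in it and -0.02 to 0.06 in the others, and in it the other replication genes lay at -0.18 and the G2/M and mitosis genes at -0.26. It was the lowest of the 6 libraries for 31 of the 45 members, and the median deviation of the members from their own means was -0.22 (log2) in it, against -0.02 and 0.02 in Clover 1 and 3 and 0.07, 0.05 and 0.09 in Z18trunc. In the same library, genes over 6000 bases lay lowest relative to genes of up to 1000 bases, at -0.35 (log2) against -0.02 and -0.06 in Clover 1 and 3 and 0.11, 0.15 and 0.17 in Z18trunc. The groups did not overlap in this measure with or without that library, and its part in the members' changes beyond the length-adjusted fit was not tested. Without Clover replicate 2, 7 members were higher at the unadjusted threshold (19.4% of all genes) and 1, MCM5, was lower (2.99%), with a median of 0.11 against 0.07 for all genes. The 7 were MCM6, CDC6, POLA1, POLD3, RRM1, EXO1 and E2F8. RRM1 and E2F8 were the 2 members higher at the unadjusted threshold in all 5 fits named here. These are the deposited TPM, quantile normalization, the length adjustment, both of these together, and the deposited TPM without Clover replicate 2. The 5 fits reuse the same libraries, and the share of all genes tested that were higher in all 5 was not computed.

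**Figure D5:**
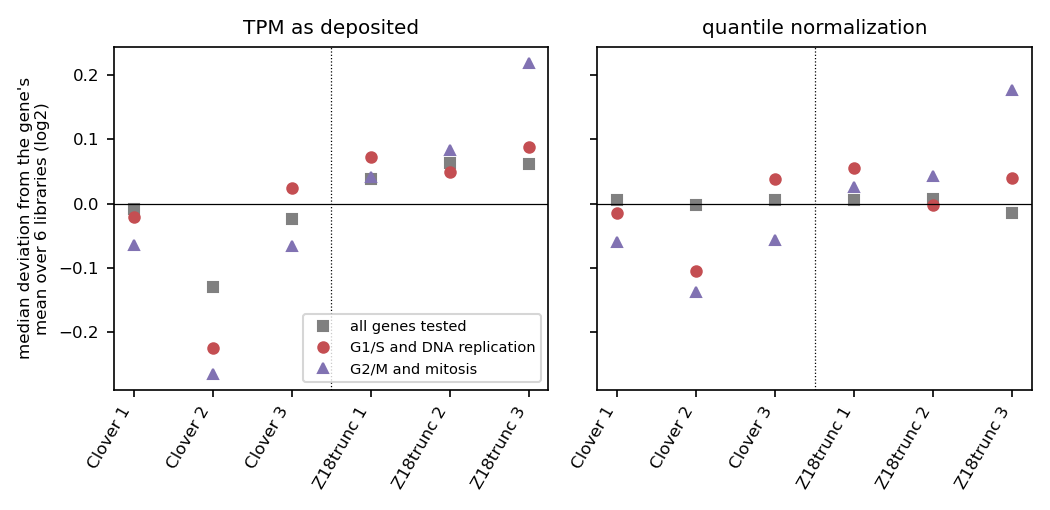
Median deviation (log2) from each gene's mean over the 6 libraries, 1 point per library, for all genes tested (grey squares), the 45 members (red circles) and the G2/M and mitosis genes (purple triangles), with TPM as deposited on the left and after quantile normalization on the right. In Clover replicate 2 the members sit at -0.22 as deposited and -0.10 after normalization, lower than in any other library.

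Other genes of replication and of the cell cycle were counted in the same fit. As background, 25.6% of all genes tested were higher and 2.90% lower at the unadjusted threshold, and 12.8% and 10.9% after quantile normalization. Of 47 other replication genes, 16 were higher and 0 lower, with a median change of 0.16. After quantile normalization 9 were higher and 2 lower. DNA2, a nuclease and helicase of Okazaki fragments and resection, had 2.65, 2.17 and 1.80 TPM in Clover and 3.88, 4.43 and 4.19 TPM in Z18trunc, a log2 change of 0.70 (SE 0.11, limma adjusted p = 0.0773). ORC4, a subunit of the origin recognition complex, had a log2 change of 0.40.

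Of 29 other G1/S regulators, 8 were higher and 0 lower, with a median of 0.17, and 7 were higher and 1 lower after quantile normalization. RB1, the brake on E2F, had 28.3, 21.8 and 27.2 TPM in Clover and 36.2, 37.9 and 38.7 TPM in Z18trunc, a log2 change of 0.54 (SE 0.11, limma adjusted p = 0.0773). E2F5, a repressor of the family, had a log2 change of 0.42, and the cyclins CCNA2 and CCND1 had 0.41 and 0.33. Of the 52 G2/M and mitosis genes 24 were higher and 0 lower, with a median of 0.31, and 16 were higher and 0 lower after quantile normalization, with a median of 0.20. The module's own counts under these 2 scalings were 16 and 5 of 45. The difference between the lists was not tested.

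A second readout came from transposable element (TE) tables, which count fragments at repeats. Those at repeats inside a member gene but outside exons, on the strand of the gene, lie mostly in introns. They summed to 68.5, 66.1 and 67.7 CPM, the count scaled to the aligned fragments of the library, over the members in Clover and to 75.0, 77.8 and 88.5 CPM in Z18trunc. The members differed by a log2 ratio of the means of 0.26, without overlap. Over the genes tested that hold such fragments the sum averaged 9996 ± 724 CPM over Clover and 12393 ± 997 CPM over Z18trunc (SD, n = 3 per group), which is 0.31 on the log2 scale, also without overlap. On the opposite strand the members averaged 1.32 ± 0.754 CPM over Clover and 1.61 ± 0.344 CPM over Z18trunc (SD, n = 3 per group), with overlap.

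All 45 members held at least 1 such fragment, and 38 held at least 60 over the 6 libraries. Of these 38, the mean was higher in Z18trunc for 29, against 81.9% of the 5840 genes tested with as many fragments. In 8 the groups did not overlap and Z18trunc was higher (21.2% of those genes), and CDC6 was the 1 member lower without overlap (0.771%). CDC6 held only 61 such fragments, close to the cut of 60, with 17, 13 and 12 in Clover and 6, 8 and 5 in Z18trunc. TYMS held 21.5% of the fragments of the module, with 15.05, 12.7 and 16.3 CPM in Clover and 16.8, 17.0 and 17.5 CPM in Z18trunc. RRM2 held 11.6%, with 7.88, 7.68 and 5.60 CPM in Clover and 8.33, 10.4 and 11.4 CPM in Z18trunc. Both sets of values were apart between groups, although TYMS overlapped in TPM.

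Some members share ground with other genes. PCNA overlaps PCNA-AS1, TYMS overlaps ENOSF1 and TYMSOS, UBR7 overlaps GON7, CENPU overlaps PRIMPOL, DTL overlaps INTS7, CCNE2 overlaps INTS8 and GINS2 overlaps GSE1, each on the opposite strand. Whether the gene values used strand is not given in the sources used here, so reads of these pairs may not be told apart.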

How the data were processed

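Polyadenylated RNA of 6 SW480 libraries (3 Clover, 3 Z18trunc, groups from the sample titles) was analysed. The submitters' processing notes name cutadapt 4.6 and hg38. The authors deposited gene tables, in the layout of StringTie, with TPM, FPKM and coverage per gene but no read counts, and their annotation is not given in the sources used here. The authors also deposited SQuIRE tables per TE locus and strand, with uniquely mapped counts, estimated counts that share multiply mapped fragments, and aligned fragments per library. The study tested genes with DESeq2 on counts, whereas the gene tables used here hold no counts, so TPM was tested, with FPKM as an alternative.

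TPM was summed by symbol, so that UBR7 and CASP8AP2, listed on extra contigs, became 1 gene each. The 13300 genes that averaged at least 1 TPM entered limma 3.58.1 (R 4.3.3) as log2(TPM + 1), with Benjamini-Hochberg adjustment over all of them. Fold changes on that scale understate changes of low genes. A run of the fit on simulated data used independent noise per gene and changes larger than those of any member. It therefore cannot show how the fit handles changes as small as theirs. Members and gene lists were chosen with earlier results of these data known. Values are given for MCM2 to MCM7 and, per other role, the 4 members with the smallest p. From other lists at most 4 genes by p are named. Lengths and exons came from GENCODE 44, and TE loci were placed with bedtools 2.31.1. The length adjustment subtracted a lowess trend (span 0.3) of each library against log length. Libraries of a group differed beyond counting noise (chi-square per degree of freedom 1.92 to 2.10). The replicate numbers did not pair the libraries.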

Additional observations from a re-analysis of the deposited data

How the results depend on the processing

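The number of genes called at an adjusted p under 0.05 was 1 with a pseudocount of 0.1, no filter, quantile normalization, the replicate block, the length adjustment, or both adjustments together. It was 474 with genes of at least 5 TPM, 60 with an intensity trend, and 1 to 4 when 1 library was left out. RRM1 was the 1 member called, at 5 TPM, where 41 members and 9973 genes were tested. At an unadjusted p under 0.05, 16 members were higher, with the share of all genes in brackets here and below (25.6%). The count became 5 with quantile normalization (12.8%), 4 with median centring (10.2%), 6 with the length adjustment (12.7%) and 8 with both adjustments (11.5%). It was 7 to 16 when 1 library was left out (17.8% to 26.1%). The lowest counts were 7 without Clover replicate 2 (19.4%) and 10 without Z18trunc replicate 3 (17.8%). The 0 members lower (2.90%) became 1 with the 5 TPM filter (3.49%), no filter (2.99%), FPKM (7.53%) or an intensity trend (4.14%). The count was 2 with quantile normalization (10.9%), 7 with median centring (18.5%), 5 with the length adjustment (11.8%) and 2 with both (11.2%). It was 0 to 1 when 1 library was left out (2.11% to 2.99%). The 19 members higher without overlap (30.1%) became 10 with median centring (14.1%) and 14 with FPKM (24.1%). The count was 13 with quantile normalization (16.8%), 13 with the length adjustment (16.2%) and 13 with both (15.9%). It was 19 to 24 when 1 library was left out (32.5% to 39.4%). The 1 member lower without overlap (6.73%) became 3 with quantile normalization (16.2%), 11 with median centring (25.3%) and 6 with FPKM (13.4%). The count was 5 with the length adjustment (17.7%) and 3 with both (15.5%). It was 1 to 5 when 1 library was left out (9.02% to 11.3%), most without Clover replicate 2 (11.2%). The median member change was 0.0523 with median centring, 0.0716 with the length adjustment and 0.11 to 0.25 when 1 library was left out. The causes of these differences were not tested.

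Of 431 log2 changes of 26 named members and ZC3H18 under 16 alternatives, 8 changed sign, in 4 genes that were not past the unadjusted threshold with TPM as deposited. MCM3 became -0.11 with median centring, -0.00914 with FPKM, -0.0165 without Clover replicate 2 and -0.0517 with the length adjustment. DSCC1 became -0.0310 with quantile normalization and -0.0137 with median centring, TYMS -0.0848 with median centring, and UNG 0.00603 without Clover replicate 3, in a range from -0.145 when 1 library was left out. The log2 ratio of TE fragments in members was 0.25 with estimated counts and 0.18 to 0.30 when 1 library was left out.

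Replicate numbers did not pair the libraries: the correlation of same-numbered deviations was -0.04, 0.02 and -0.04, and not every library correlated best with its own number. With the replicate block 17 members passed upward (24.0% of all genes) and 0 downward (2.27%) at the unadjusted threshold. The precision of 3 libraries a group is given by the standard errors of the members, 0.07 to 0.20. Read depth per gene is known as coverage only.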
